A study of Mus musculus with 2 samples.

Results

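The genes described here are 48 mouse genes known to be induced by type I interferon, taken as a list of gene symbols. The list was drawn up with earlier results of these data known, although its rule uses no measured value. Of these, 46 had a symbol in the gene tables, out of 32285 genes in all, and each of the 46 had at least 1 captured RNA molecule in both libraries. Mx1 and Mx2 were not analysed here. The cells were CD45+ leukocytes, sorted from subcutaneous tumours of B16F10-OVA, a mouse melanoma line carrying ovalbumin as a model antigen, and their RNA was counted cell by cell with the droplet method of 10x Genomics. The control mice had been injected with PBS, a saline buffer, and the treated mice with UDSP-Hep, a name that the labels give without a description. Both groups carried the same tumour and were injected on days 10, 12, 14 and 16. Tumours were taken on day 19, and 3 tumours per group were pooled into 1 library from about 10000 loaded cells. Strain, sex and age of the mice are not given in the sources used here. With 1 library per group there is no replicate, no test of a difference was made, and a difference between the libraries cannot be told apart from a difference between the pooled tumours.

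Type I interferons, such as interferon-beta, bind the receptor chains IFNAR1 and IFNAR2. The kinases JAK1 and TYK2 are then activated, and a complex that holds STAT2 and IRF9 binds a short DNA element, the interferon-stimulated response element, in front of the responding genes. Their products bind or degrade viral RNA, restrain viral entry and release, modify proteins with ISG15, and raise the cell's own sensing of nucleic acids. Some of these genes can also answer interferon-gamma, which has a receptor of its own. In tumours, type I interferon is known for its effects on dendritic cells and on T cell priming.

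The core letters of the response element were searched as GAAANNGAA, whose reverse complement is TTCNNTTTC, on both strands of windows from 250 bases before to 50 bases after each transcript start in RefSeq, build GRCm38.p6. Of the 46 genes, 37 had a window in that table, and 21 of these (56.8%) held the letters at least once. Counted over windows, 23 of 43 held them (53.5%), against 2812 of the 32851 windows of all genes (8.56%). A match describes letters and is not shown to be a binding site. The 6 stretches below are the 200 bases before the start of genes on which the results turn, written 5′ to 3′ on the gene's strand, with the matching letters in capitals. They show which genes carry several overlapping or neighbouring matches, which carry 1, and which carry none.
Ifit1: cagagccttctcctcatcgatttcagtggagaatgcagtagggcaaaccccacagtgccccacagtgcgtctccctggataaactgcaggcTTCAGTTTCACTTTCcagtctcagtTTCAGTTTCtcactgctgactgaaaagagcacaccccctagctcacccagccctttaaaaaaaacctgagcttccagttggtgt
Ifit3: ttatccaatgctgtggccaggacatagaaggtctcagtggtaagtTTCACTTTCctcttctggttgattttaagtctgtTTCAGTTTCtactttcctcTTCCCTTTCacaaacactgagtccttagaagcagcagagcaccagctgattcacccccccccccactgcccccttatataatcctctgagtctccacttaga
Ifit3b: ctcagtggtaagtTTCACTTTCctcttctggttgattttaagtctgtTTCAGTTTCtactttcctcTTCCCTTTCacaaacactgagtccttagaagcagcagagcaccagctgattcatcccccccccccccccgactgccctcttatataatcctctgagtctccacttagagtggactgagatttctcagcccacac
Isg15: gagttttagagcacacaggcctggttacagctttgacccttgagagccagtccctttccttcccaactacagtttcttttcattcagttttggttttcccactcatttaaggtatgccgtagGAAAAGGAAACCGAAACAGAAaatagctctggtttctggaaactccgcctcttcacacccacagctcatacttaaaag
Rsad2: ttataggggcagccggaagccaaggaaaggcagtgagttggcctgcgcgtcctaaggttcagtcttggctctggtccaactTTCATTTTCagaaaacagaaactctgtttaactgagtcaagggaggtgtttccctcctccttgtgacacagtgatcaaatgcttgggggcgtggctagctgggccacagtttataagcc
Slfn4: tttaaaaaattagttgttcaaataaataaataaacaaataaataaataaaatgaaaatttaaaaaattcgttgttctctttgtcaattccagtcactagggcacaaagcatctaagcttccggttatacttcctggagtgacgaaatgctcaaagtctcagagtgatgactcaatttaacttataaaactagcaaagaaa
These stretches lie at chr19:34640689-34640888 (plus strand), chr19:34583329-34583528 (plus), chr19:34607757-34607956 (plus), chr4:156200819-156201018 (minus), chr12:26456453-26456652 (minus) and chr11:83174986-83175185 (plus). Ifit1, Ifit3, Ifit3b and Isg15 each had 3 matches, Rsad2 had 1 and Slfn4 had none. In Ifit1 and Isg15 some of the matches overlap, so that they share letters. Ifit3 and Ifit3b were alike at 201 of 268 bases of the full windows when set against each other with a shift of 32 bases and no gaps (75%), and the 3 matches are spelled the same in both. The 16 genes with a window and no match were Ifit2, Cmpk2, Oasl1, Oasl2, Irf7, Irf9, Herc6, Slfn1, Slfn2, Slfn4, Dtx3l, Phf11d, Ms4a4c, Isg20, Xaf1 and Ifi35. Windows of Oas2, Usp18, Dhx58, Zbp1, Ifi204, Parp9, Parp14, Rtp4 and Ifi27l2a were not used here.

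The 46 genes lay on 15 chromosomes of GRCm38, some of them side by side. Ifit2, Ifit3, Ifit3b and Ifit1 followed each other on chromosome 19 with gaps of 7.11, 19.2 and 27.5 kb. Rsad2 and Cmpk2 faced away from each other on chromosome 12 with 12.8 kb between them, and Dtx3l and Parp9 overlapped on chromosome 16. The Oas and Oasl genes lay on chromosome 5, the Slfn genes on chromosome 11 and Phf11b and Phf11d on chromosome 14. Reads of the related pairs Ifit3 and Ifit3b, Oas1a and Oas1g, Phf11b and Phf11d, and Ifi204 and Ifi205 may have been split or left out. So may those of the Slfn genes and of the overlapping Dtx3l and Parp9, which lie on opposite strands. The single values of these genes are therefore uncertain, and the likeness of their transcripts was not measured here.

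The PBS library held 7379 barcodes and 74685827 unique molecular identifiers (UMIs), the tags that count captured RNA molecules, and the UDSP-Hep library 7872 barcodes and 64241224 UMIs. After filters 6717 and 7194 cells were kept, with medians of 7874 and 5483 UMIs. The libraries shared 25 barcodes, of which 20 were among the kept cells. Clusters were built without the interferon genes and named from marker genes, and these names are rebuilt here and not the authors'. The 9 classes compared had at least 50 cells in each library: monocytes and macrophages (3658 in PBS and 2016 in UDSP-Hep), nonclassical monocytes (322 and 678), conventional type 2 dendritic cells, called cDC2 (378 and 249), mature dendritic cells (199 and 74), neutrophils (62 and 907), basophils (117 and 59), NK cells (432 and 1405), CD8 T cells (499 and 476) and regulatory T cells, called Treg (206 and 277). Within a class, UMIs were summed over the cells of a library and scaled to counts per 1000000 UMIs of that class and library (CPM). The 7 melanoma markers summed to 49.8 and 53.8 CPM in monocytes and macrophages, so few tumour cell transcripts were counted there in either library.

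Levels are given first for PBS and then for UDSP-Hep throughout. The ratio is UDSP-Hep over PBS, and the values in parentheses after it are its exact 95% interval, which covers counting error only and not differences between tumours. A gene was counted as higher or lower where the levels lay 1.5-fold or more apart and the interval of their ratio left out equality, among genes with at least 20 summed UMIs. The same rule over all measured genes of a class gives the background share.

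In both libraries, neutrophils and monocytes and macrophages held the highest level of most of the genes. The same class was highest in both libraries for 35 of the 46. Neutrophils led for 19 of them: Ifit1, Ifit3, Ifit3b, Rsad2, Cmpk2, Oas3, Oasl1, Oasl2, Irf9, Isg15, Usp18, Ddx58, Slfn1, Slfn2, Slfn4, Slfn8, Rtp4, Isg20 and Trim30a. Monocytes and macrophages led for 8, which were Oas1a, Oas1g, Irf7, Ifih1, Dhx58, Zbp1, Ifi204 and Phf11d. For cDC2 these were Ifi205, Phf11b, Ms4a4c and Ifi35, and for mature dendritic cells Herc6 and Dtx3l. Ifitm3 was highest in nonclassical monocytes and Ifi27l2a in Treg. The leading class differed between the libraries for Ifit2, Oas2, Stat2, Eif2ak2, Slfn5, Parp9, Parp14, Bst2, Ifi44, Xaf1 and Samd9l.

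The gap to the next class varied. Rsad2 stood at 1843 and 1102 CPM in neutrophils against 542 and 402 in monocytes and macrophages, with counting intervals apart in both libraries. Slfn4 stood at 971 and 543 CPM in neutrophils and at 126 and 60.1 in monocytes and macrophages, also apart. Irf9, in contrast, lay between 135 and 136 CPM in neutrophils and 39.3 and 35.2 in basophils, and the intervals of its 2 highest classes overlapped in both libraries. The overlap of the 2 highest classes held in both libraries also for Oas1g, Oas2, Oas3, Stat2, Usp18, Herc6, Ifih1, Eif2ak2, Slfn5, Parp9, Dtx3l, Parp14, Xaf1 and Samd9l. Ifi27l2a, a small hydrophobic interferon-induced protein, had a pattern of its own among these genes, with 3229 and 2695 CPM in Treg, 2538 and 2120.2 in nonclassical monocytes and 44.3 and 68.1 in NK cells. Bst2 is known as a surface marker of plasmacytoid dendritic cells in mice. In the 83 and 32 cells named so, a number too small in UDSP-Hep for the comparisons, Bst2 stood at 2669 and 1960.2 CPM, above its level in each of the 9 classes.

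**Figure D1:**
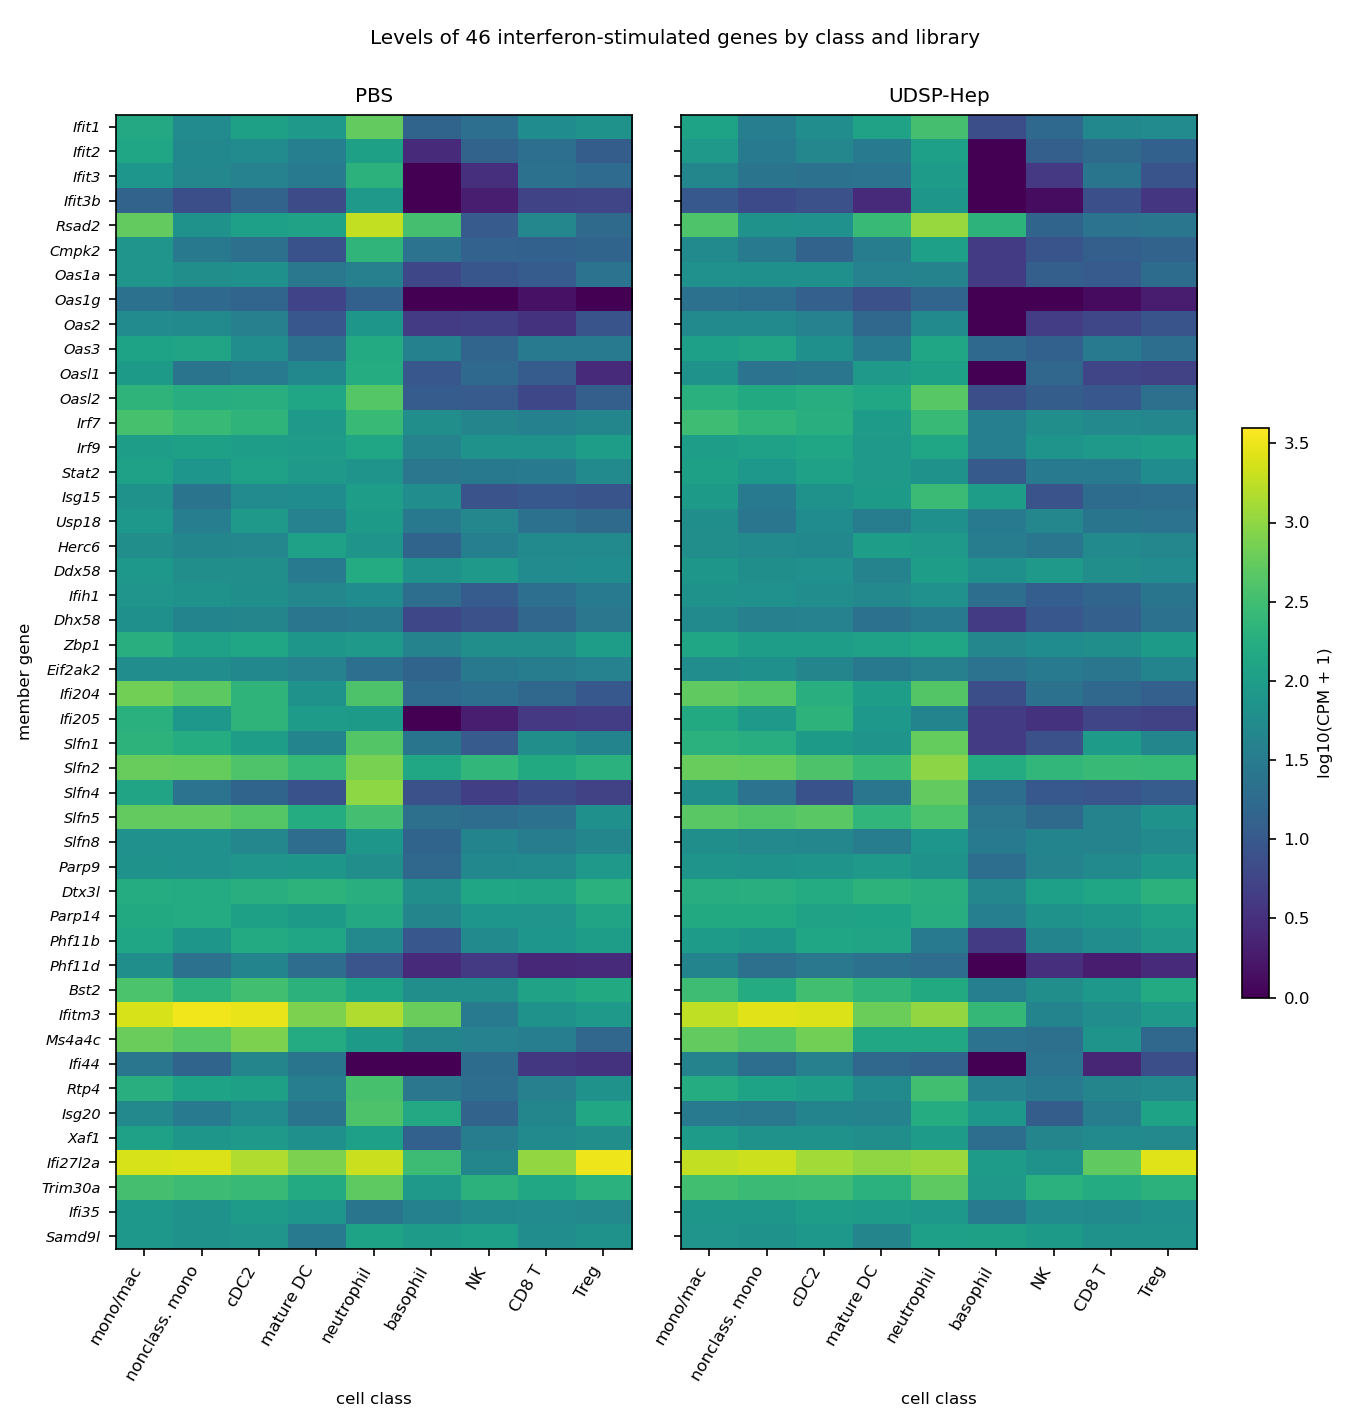
Level of each of the 46 interferon-stimulated genes (vertical axis) in 9 leukocyte classes (horizontal axis), with the PBS library on the left and the UDSP-Hep library on the right and colour as log10(CPM + 1). Neutrophils and the monocyte classes are brightest for most genes, NK cells and basophils are darkest, and Ifi27l2a and Ifitm3 are bright in other classes as well.

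Lymphocytes held low levels of many members, and RNA released from phagocytes can enter their droplets. The summed level of 10 genes that phagocytes express and lymphocytes should not, chosen after the data were seen, was 1.12% and 1.55% of the phagocyte level in NK cells, 1.91% and 2.76% in Treg and 1.39% and 1.72% in CD8 T cells. Ifitm3 in NK cells stood at 1.17% and 2.29% of its level in monocytes and macrophages, and Ifi205 at 0.546% and 1.52%, both near that share. Samd9l and Ddx58 stood at 132% and 120.0% and at 108% and 109% in the same cells, far above it. Isg20 in Treg reached 285% and 416% of the phagocyte level.

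Between the libraries, most of the genes measured in a class were called neither higher nor lower, and the number called differed by class. A gene without a call may still lie beyond 1.5-fold where its interval holds equality, as Oas3 did in basophils. In monocytes and macrophages, the class with the most cells, Ifit3, Slfn4 and Isg20 were lower in UDSP-Hep and Ifi44 was higher. These were 3 of 46 lower, with a background of 3.79% of all measured genes, and 1 higher, with a background of 9.53%. Below equality lay 40 of the 46, and the median log2 ratio was -0.19, against 0.13 for all measured genes of the class. With median-of-ratios scaling, which sets the median gene near equality, the counts were 0 higher and 8 lower. The median stayed below 0 under all 17 alternatives computed. Without cluster M10 the lower count was 6, and without cluster M1 the higher count was 0.

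In nonclassical monocytes, patrolling cells of the blood vessel wall, Ifit1, Ifit2 and Ifit3 were lower and none of the 46 was higher, with backgrounds of 2.10% and 5.86%. The class joined cluster M12, with 264 and 367 cells, and M16, with 58 and 311, so its make-up differed between the libraries. With both clusters weighed the same 1 was lower and 3 higher, and with cells chosen by marker gates 4 were higher. In cDC2, which present antigen to CD4 T cells, 8 of 46 were lower and 0 higher, with backgrounds of 2.28% and 4.83%. Those 8 were Ifit1, Ifit3, Ifit3b, Rsad2, Cmpk2, Usp18, Slfn4 and Phf11d. The median log2 ratio was -0.02 in nonclassical monocytes and -0.17 in cDC2. When each cell was thinned to the same number of UMIs, the lower count in cDC2 was 2, and with cells chosen by marker gates in place of clusters it was also 2.

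Mature dendritic cells, the CCR7+ state that migrates to lymph nodes, went the other way. There 9 of 45 measured genes were higher, with a background of 14.0%, and 0 were lower, with a background of 3.02%. The share of higher calls thus stood little above the background. The 9 were Rsad2, Cmpk2, Oasl1, Isg15, Slfn1, Slfn4, Slfn8, Rtp4 and Isg20, and the median log2 ratio was 0.29 against 0.12 for all measured genes. This class held 74 cells in UDSP-Hep, and its higher count ranged from 1 under thinning to 20 with interferon genes kept in the clustering, with 6 higher and 2 lower under median-of-ratios scaling. Markers of other cells were higher with it: the macrophage list summed to 598 and 1172 CPM, the classical monocyte list to 309 and 1108, the neutrophil list to 11.4 and 159.7 and the CD8 T cell list to 260.0 and 689. Their part in the result was not tested.

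In neutrophils, 10 of 46 were lower and 3 higher, with backgrounds of 4.67% and 8.37%. Lower were Ifit1, Ifit3, Rsad2, Cmpk2, Oasl1, Ddx58, Ifi205, Slfn4, Isg20 and Ifi27l2a, and higher were Isg15, Zbp1 and Ifi35. Only 34 of the 46 had at least 20 UMIs in PBS alone, and Ifi35 had 6 there against 260 in UDSP-Hep. The PBS side rests on 62 cells, and the summed UMIs of the class were 251246 and 3209102. The median log2 ratio was -0.02 against 0.23 for all measured genes. The neutrophil marker list itself was lower in the same cells, at 56339 and 27948 CPM, while the macrophage list stood at 1715 and 3555 and the cDC2 list at 1385 and 258. Whether those lists bear on the result was not tested. With median-of-ratios scaling 13 were lower and 2 higher. Basophils, with 21 measured members, had 4 lower (Rsad2, Ifitm3, Isg20 and Ifi27l2a) and 1 higher (Isg15), with backgrounds of 4.67% and 7.35%.

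The lymphocyte classes showed small counts of calls. The minimum of 20 UMIs applied to both libraries summed, and in PBS alone 33 genes reached it in NK cells, 41 in CD8 T cells and 34 in Treg. In NK cells, Slfn4, Rtp4 and Ifi27l2a were higher and Ms4a4c lower among 42 measured, with backgrounds of 4.12% and 2.67%. In CD8 T cells, Isg15, Slfn1, Slfn2, Slfn5 and Ms4a4c were higher and Rsad2, Oasl1 and Ifi27l2a lower among 44, with backgrounds of 11.9% and 6.08%, so that neither share stood far from the background. In Treg, Oasl2, Isg15 and Slfn4 were higher and Ifit3 lower among 40, with backgrounds of 4.69% and 2.47%. The 3 higher genes of Treg each had under 20 UMIs in PBS, with 19 and 45 for Oasl2, 13 and 42 for Isg15 and 7 and 23 for Slfn4, and Slfn4 in NK cells had 7 and 53. They passed the minimum through the library in which they were higher, so these counts support nothing further. With median-of-ratios scaling Treg had 2 higher and 2 lower. The neutrophil marker list was also higher in these cells in UDSP-Hep, at 10.8 and 58.9 CPM in NK cells, 22.5 and 56.1 in Treg and 5.36 and 50.2 in CD8 T cells, and its part in the result for Slfn4, which neutrophils hold at a high level, was not tested.

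**Figure D2:**
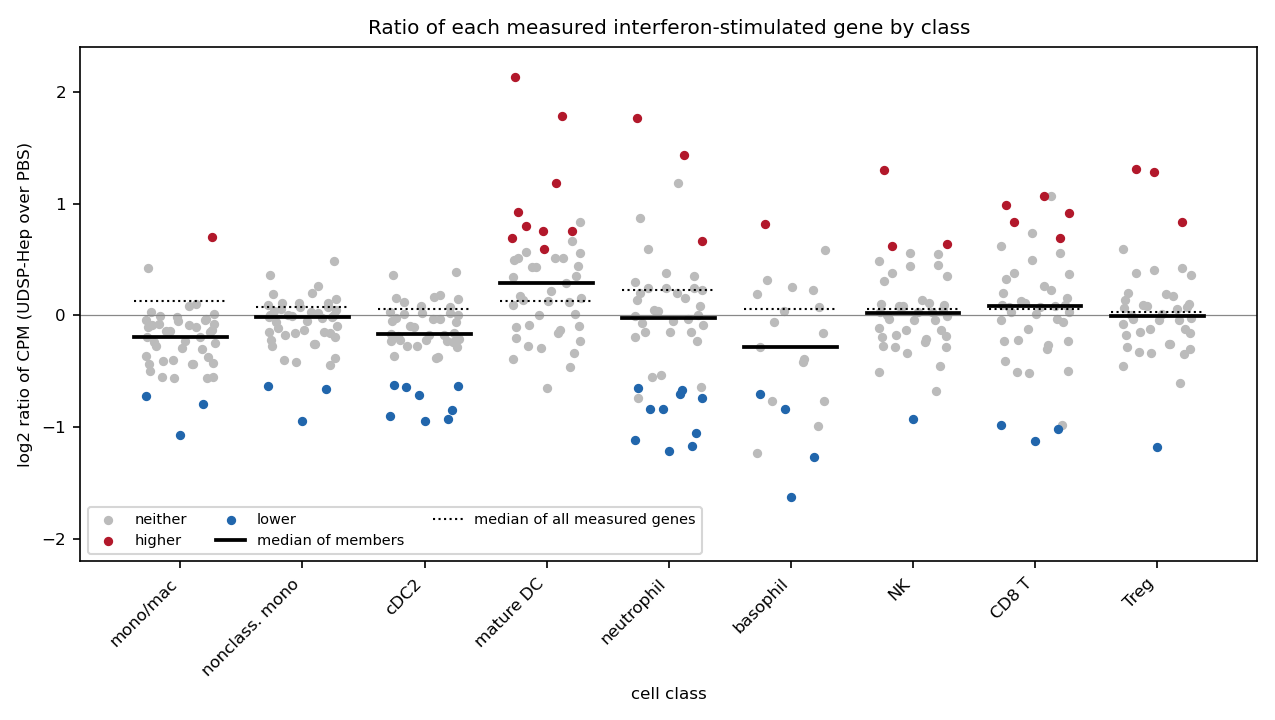
Log2 ratio of CPM, UDSP-Hep over PBS (vertical axis), of each measured interferon-stimulated gene in 9 classes (horizontal axis), red where higher and blue where lower by the 1.5-fold rule. The solid line is the median of these genes and the dotted line that of all measured genes: the solid line lies at -0.19 against 0.13 in monocytes and macrophages and at 0.29 against 0.12 in mature dendritic cells.

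Across the 9 classes, 17 of the 46 were higher in at least 1 class and 16 lower, 7 of which were called both ways, and 20 were called in none. The genes without a call were Oas1a, Oas1g, Oas2, Oas3, Irf7, Irf9, Stat2, Herc6, Ifih1, Dhx58, Eif2ak2, Ifi204, Parp9, Dtx3l, Parp14, Phf11b, Bst2, Xaf1, Trim30a and Samd9l. They include the 4 Oas synthetases, the 3 transcription factors and the 3 genes of the PARP group. The share of all measured genes called in at least 1 of the 9 classes was not computed, so these counts have no background beside them. Of the 17, Oasl2 and Ifi35 count only through calls with under 20 UMIs in PBS.

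The IFIT proteins bind viral RNA and block its translation. Ifit1 was called lower in 3 classes, Ifit2 in 1, Ifit3 in 5 and Ifit3b in 1, and none of them was called higher. A family with more genes can have more calls, and no background share was computed for these counts. In monocytes and macrophages their summed level was 366 and 263 CPM, a ratio of 0.720 (0.698 to 0.742). In nonclassical monocytes it was 152 and 92.9 CPM, with a ratio of 0.613 (0.532 to 0.707), and in cDC2 213 and 129, with a ratio of 0.607 (0.542 to 0.678). Ifit3, a partner in IFIT protein complexes, was lower in 5 of the 8 classes where it was measured. It stood at 76.7 CPM in PBS and 44.4 in UDSP-Hep in monocytes and macrophages, a ratio of 0.579 (0.538 to 0.622), and at 44.7 and 23.3 in nonclassical monocytes, a ratio of 0.521 (0.395 to 0.686). In neutrophils it was 203 and 98.2 CPM, in cDC2 38.9 and 21.6 and in Treg 17.2 and 7.57. The PBS library was the higher in all 5. The share of all genes called lower in as many classes was not computed. In Treg, Ifit3 had under 20 UMIs in UDSP-Hep and passed the minimum through PBS, where it was higher. NK cells held it at 2.06 and 3.02 CPM and CD8 T cells at 21.1 and 24.3, where neither value met the rule.

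Ifit1, which recognises foreign RNA caps, stood at 147 and 122 CPM in monocytes and macrophages, 53.0 and 33.5 in nonclassical monocytes, 19.6 and 16.1 in NK cells and 55.6 and 47.6 in CD8 T cells. Its ratio in nonclassical monocytes was 0.632 (0.497 to 0.805), and in cDC2, with 109 and 56.3 CPM, it was 0.518 (0.438 to 0.611). Ifit2 stood at 129 and 88.2, 47.6 and 30.7, 12.9 and 11.2 and 19.6 and 16.7 CPM in the same 4 classes, with a ratio of 0.684 (0.649 to 0.721) in the first and 0.644 (0.49998 to 0.831) in the second. Only the second met the rule, although the ratios were close, since the first lay just inside 1.5-fold. Ifit3b, the near copy of Ifit3, stood at 13.02 and 8.81 CPM in monocytes and macrophages, 6.21 and 5.44 in nonclassical monocytes and 4.52 and 6.64 in CD8 T cells, and had under 20 UMIs in NK cells.

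Rsad2 encodes viperin, an enzyme that makes a nucleotide able to stop viral RNA synthesis, and its neighbour Cmpk2 encodes a mitochondrial nucleotide kinase thought to supply its substrate. Rsad2 was lower in 4 classes and higher in 1. In cDC2 it stood at 108 CPM in PBS and 66.2 in UDSP-Hep, a ratio of 0.611 (0.521 to 0.714), in CD8 T cells at 46.04 and 22.8, a ratio of 0.495 (0.381 to 0.639), and in neutrophils at 1843 and 1102. In mature dendritic cells it stood at 117 and 267 CPM, a ratio of 2.28 (1.95 to 2.67). Its level in nonclassical monocytes was nearly the same in both libraries, at 69.5 and 68.9 CPM. The CD8 T cell value depended on doublet removal, since with doublets kept the log2 ratio was 0.03 in place of -1.01. Cmpk2 had the same directions in the classes where both were called, with 7.12 and 31.3 CPM in mature dendritic cells, 20.6 and 13.2 in cDC2 and 227 and 105 in neutrophils. The pooled monocytes and macrophages held it at 74.1 and 50.6 CPM, a ratio of 0.683 (0.636 to 0.732) and inside 1.5-fold.

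The OAS synthetases make short adenylate chains that activate RNase L, and OASL1 and OASL2 are their relatives. Across monocytes and macrophages the 6 genes summed to 584 and 509 CPM, a ratio of 0.871 (0.852 to 0.891), and in nonclassical monocytes to 445 and 436, a ratio of 0.9804 (0.910 to 1.06). Oas1a stood at 73.2 and 66.3 CPM in monocytes and macrophages, 59.6 and 64.2 in nonclassical monocytes, 8.24 and 11.2 in NK cells and 10.0 and 9.82 in CD8 T cells. Oas2 stood at 53.5 and 52.2, 49.7 and 51.8, 3.604 and 3.52 and 2.34 and 4.91 CPM in that order. For Oas3 the 4 pairs were 123 and 107, 124 and 124, 13.9 and 12.2 and 30.6 and 29.5 CPM. None of these moved by 1.5-fold with an interval apart from equality. Oas1g, measured at 21.9 and 21.2 CPM in monocytes and macrophages and 15.7 and 18.9 in nonclassical monocytes, was under 20 UMIs in NK and CD8 T cells.

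Oasl1, known to limit translation of Irf7 in mice, stood at 90.02 and 67.0 CPM in monocytes and macrophages, 23.6 and 22.6 in nonclassical monocytes and 16.0 and 14.6 in NK cells. It was lower in CD8 T cells, at 10.0 and 4.62 CPM, a ratio of 0.460 (0.247 to 0.809), and higher in mature dendritic cells, at 46.7 and 88.7, a ratio of 1.90 (1.46 to 2.48). The CD8 T cells had under 20 UMIs of it in UDSP-Hep, so it passed the minimum through PBS, where it was higher. Oasl2 stood at 222 and 194, 172 and 154, 9.78 and 10.4 and 5.02 and 8.37 CPM in monocytes and macrophages, nonclassical monocytes, NK cells and CD8 T cells. Its only call was in Treg, at 11.3 and 20.04 CPM, with an interval that nearly reached equality (1.78 (1.02 to 3.22)).

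The transcription factors of the pathway differed little between the libraries. Irf7, which amplifies interferon production, stood at 353 CPM in PBS and 298 in UDSP-Hep in monocytes and macrophages, a ratio of 0.844 (0.819 to 0.869), and at 267 and 229 in nonclassical monocytes. In NK cells it was 42.7 and 59.7 CPM, with a ratio of 1.40 (1.10 to 1.796), inside 1.5-fold. Irf9, the DNA-binding part of the STAT complex, stood at 102 and 104 CPM in monocytes and macrophages and 109.7 and 112 in nonclassical monocytes. Its ratio was 1.29 (1.13 to 1.46) in cDC2, with 100.3 and 129 CPM. Stat2 stood at 116 and 109.8 CPM in monocytes and macrophages, a ratio of 0.949 (0.903 to 0.998), at 113 and 115 in cDC2 and at 27.3 and 29.2 in NK cells. Over all 9 classes none of the 3 met the rule.

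Isg15 encodes a ubiquitin-like protein that is joined to other proteins and also secreted, and it was the member with the most higher calls. It was higher in 5 of the 9 classes and lower in none. The share of all genes called higher in as many classes was not computed. In Treg, Isg15 had under 20 UMIs in PBS and passed the minimum through UDSP-Hep, where it was higher. Neutrophils held it at 103 CPM in PBS and 280.1 in UDSP-Hep, a ratio of 2.71 (1.84 to 4.17), and CD8 T cells at 8.87 and 17.6, a ratio of 1.99 (1.35 to 2.92). In Treg it stood at 7.70 and 18.7 CPM, in basophils at 58.1 and 102 and in mature dendritic cells at 55.6 and 89.6. Monocytes and macrophages held it at 67.8 and 91.0 CPM, a ratio of 1.34 (1.27 to 1.42) that was above equality and inside 1.5-fold, as it was in cDC2 (1.31 (1.10 to 1.56)). NK cells, at 7.21 and 7.38 CPM, were alike in both libraries within counting error. Usp18, which removes ISG15 and dampens the receptor, went the other way in cDC2, at 86.3 and 56.0 CPM, a ratio of 0.649 (0.545 to 0.770). Herc6, the ligase that attaches ISG15 in mice, was at 59.6 and 59.1 CPM in monocytes and macrophages, and its ratio in NK cells was 0.729 (0.543 to 0.988).

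**Figure D3:**
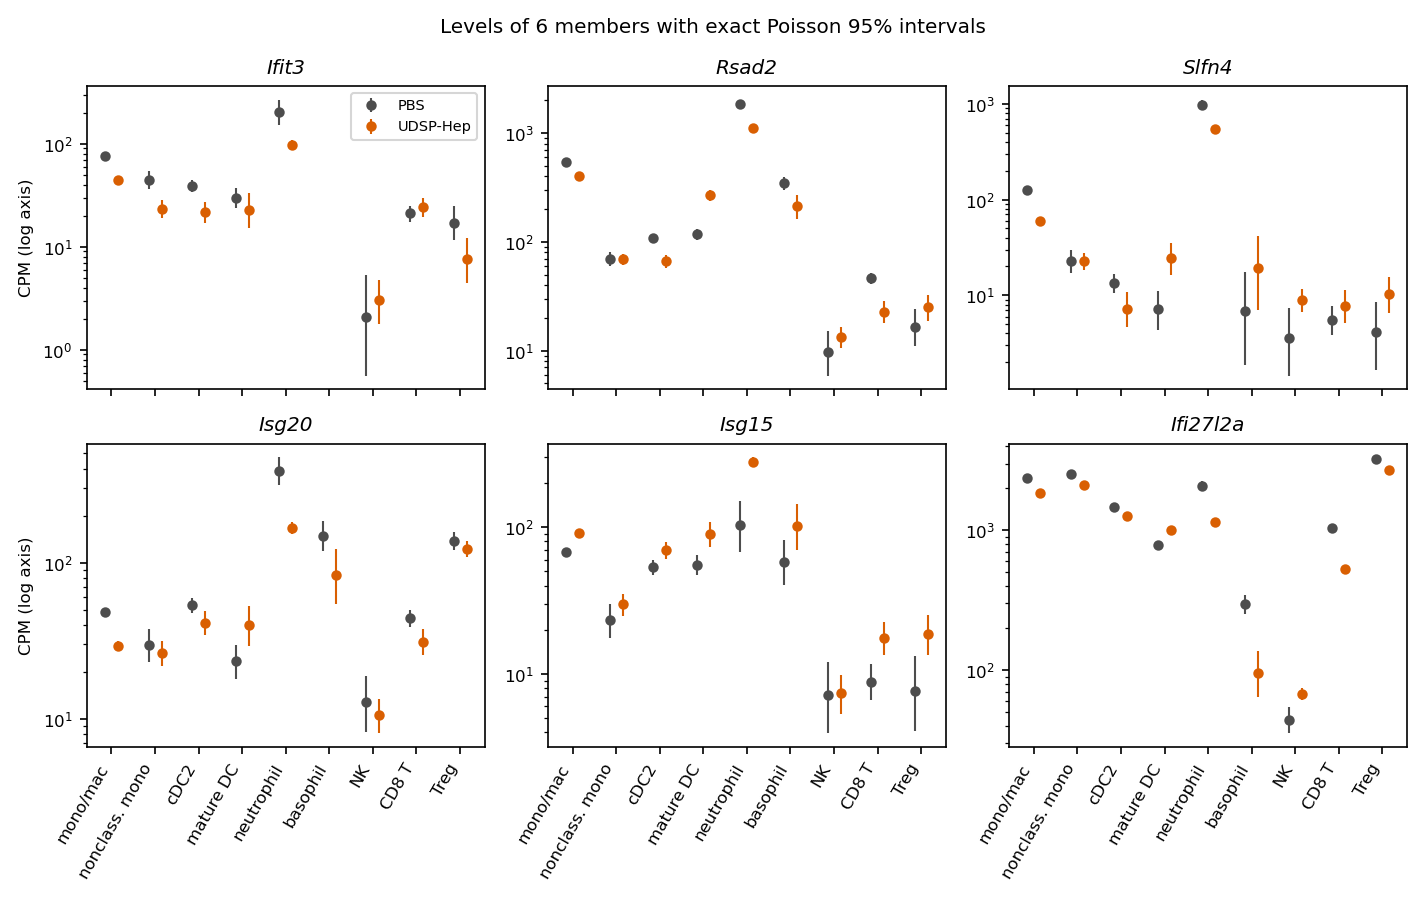
Level in CPM (vertical axes, log scale) of 6 interferon-stimulated genes in 9 classes (horizontal axes), grey for PBS and orange for UDSP-Hep, with exact Poisson 95% intervals. Ifit3 has no point in basophils, where it had no UMI, Isg15 is at 103 and 280.1 CPM in neutrophils, and Slfn4 at 126 and 60.1 CPM in monocytes and macrophages.

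Of the nucleic acid sensors, most stayed within 1.5-fold. Ddx58, the RNA sensor RIG-I, was lower in neutrophils, at 163 and 100.03 CPM, and stood at 81.6 and 79.0 in monocytes and macrophages. Ifih1, the long-RNA sensor MDA5, stood at 73.5 and 69.2 and its regulator Dhx58 at 62.2 and 52.6 CPM in monocytes and macrophages. Zbp1, which senses left-handed nucleic acids, stood at 179 and 133 CPM there and was higher in neutrophils, at 83.6 and 132, a ratio of 1.58 (1.02 to 2.59). Eif2ak2, the RNA-activated kinase PKR, stood at 57.6 and 57.3 CPM in monocytes and macrophages. Ifi204, of the DNA-binding PYHIN family, stood at 692 and 525 CPM in the same cells, with a ratio of 0.759 (0.742 to 0.776). Its relative Ifi205 was lower in neutrophils, at 91.5 and 40.8 CPM, and little different in cDC2, at 219 and 211.

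The Schlafen genes, a family tied to growth control and to restriction of viruses, parted within the family. Slfn4, which is known from myeloid cells, was lower in monocytes and macrophages, at 126 CPM in PBS and 60.1 in UDSP-Hep, a ratio of 0.476 (0.448 to 0.506), and this was the lowest ratio of the 46 there. It was lower as well in neutrophils, at 971 and 543, and in cDC2, at 13.4 and 7.19. It was higher in mature dendritic cells, at 7.12 and 24.5 CPM, a ratio of 3.44 (1.88 to 6.41), in NK cells, at 3.604 and 8.89, a ratio of 2.47 (1.12 to 6.43), and in Treg, at 4.14 and 10.2. These last 3 levels are low, and the neutrophil markers given above moved with them. In nonclassical monocytes and CD8 T cells it stood at 22.8 and 22.6 and 5.53 and 7.80 CPM.

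In CD8 T cells the 5 Schlafen genes summed to 270.2 and 456 CPM, a ratio of 1.69 (1.57 to 1.81). Slfn2, which keeps T cells quiescent, stood at 154 and 275 CPM in CD8 T cells, a ratio of 1.79 (1.63 to 1.96), and at 587 and 571, 558 and 558 and 242 and 241 in monocytes and macrophages, nonclassical monocytes and NK cells. Slfn1 stood at 58.3 and 93.9 CPM in CD8 T cells, a ratio of 1.61 (1.38 to 1.88), and at 215 and 196, 167 and 176 and 9.78 and 6.88 in the other 3. For Slfn5 the CD8 T cell pair was 20.9 and 39.6 CPM, a ratio of 1.89 (1.47 to 2.43), beside 549.9 and 469, 549 and 416 and 18.5 and 16.4. These 3 were higher in CD8 T cells and, for Slfn1, in mature dendritic cells, at 41.7 and 72.7 CPM. Slfn8 stood at 64.5 and 61.1, 64.6 and 48.5, 40.7 and 41.6 and 31.8 and 39.9 CPM in the 4 classes and was higher in mature dendritic cells, at 18.5 and 31.3. When CD8 T cell clusters were given the same weight in both libraries, the log2 ratio of Slfn2 was 0.32 in place of 0.84.

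Parp9 and Dtx3l form a complex that attaches ubiquitin to histones and other proteins, and Parp14 is an ADP-ribosylating enzyme related to Parp9. Parp9 stood at 68.0 and 72.7 CPM in monocytes and macrophages, 66.2 and 69.8 in nonclassical monocytes, 46.3 and 39.9 in NK cells and 49.6 and 52.6 in CD8 T cells. Dtx3l stood at 166 and 177, 164 and 178, 133 and 105 and 127 and 135 CPM in the same order, and its ratio in NK cells was 0.791 (0.683 to 0.918). For Parp14 the pairs were 153 and 154, 164 and 151, 76.2 and 70.3 and 74.2 and 79.1 CPM. None of the 3 was called in any of the 9 classes. Their summed ratio in monocytes and macrophages was 1.04 (1.01 to 1.07), the highest of the gene groups there, and their median log2 ratio of 0.09 lay below the 0.13 of all measured genes, which puts the group below the median gene of the class.

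The PHF11 genes encode proteins with a plant homeodomain finger, and 1 of them had a call. Phf11d stood at 61.3 CPM in PBS and 41.4 in UDSP-Hep in monocytes and macrophages, a ratio of 0.676 (0.626 to 0.730) that lay just inside 1.5-fold, and at 41.2 and 26.7 in cDC2, a ratio of 0.647 (0.501 to 0.830). Phf11b stood at 136 and 96.3 CPM in monocytes and macrophages, a ratio of 0.708 (0.673 to 0.744).

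Among the membrane proteins, Ifitm3, which blocks fusion of viruses with endosomes, stood at 3350.3 and 2772 CPM in nonclassical monocytes, a ratio of 0.827 (0.804 to 0.851). In NK cells it was 28.3 and 41.8 CPM, a ratio of 1.47 (1.10 to 2.01) at a level near that of released phagocyte RNA. In basophils it was lower, at 602 and 249 CPM. Bst2, known as tetherin because it holds budding viruses at the cell surface, stood at 385 and 299 CPM in monocytes and macrophages and 116 and 81.7 in CD8 T cells, with a ratio of 0.704 (0.611 to 0.810) in the latter. Ms4a4c, a membrane-spanning protein, was lower in NK cells, at 38.6 and 20.3 CPM, a ratio of 0.525 (0.391 to 0.711). It was higher in CD8 T cells, at 34.0 and 71.0 CPM, a ratio of 2.09 (1.73 to 2.53), and with cells thinned to 1000 UMIs the log2 ratio there was 0.07 in place of 1.06.

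Of the remaining members, Isg20 and Ifi27l2a had calls in both directions across the 9 classes. Ifi44, Rtp4 and Ifi35 were only called higher, and Xaf1, Trim30a and Samd9l were not called. Isg20, an RNA exonuclease, was lower in monocytes and macrophages, at 48.5 CPM in PBS and 29.4 in UDSP-Hep, a ratio of 0.607 (0.555 to 0.664), and in neutrophils and basophils, at 386 and 167 and 149 and 83.1 CPM. In CD8 T cells it was 44.0 and 31.2 CPM, a ratio of 0.708 (0.561 to 0.889) inside 1.5-fold, and in mature dendritic cells it was higher, at 23.5 and 39.7. Ifi27l2a was lower in CD8 T cells, at 1039.9 and 526 CPM, a ratio of 0.506 (0.480 to 0.533) over more UMIs than any other member called in those cells. In Treg its ratio was 0.835 (0.805 to 0.866), with 3229 and 2695 CPM. In NK cells it was 44.3 and 68.1 CPM, a ratio of 1.54 (1.22 to 1.96) at 1.87% and 3.71% of the phagocyte level. The value in basophils, at 296 and 95.9 CPM, turned with doublets kept, to a log2 ratio of 0.29 in place of -1.62.

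Ifi44 was the 1 member higher in monocytes and macrophages, at 24.5 CPM in PBS and 39.7 in UDSP-Hep, a ratio of 1.62 (1.48 to 1.78). Rtp4, a receptor transporter with antiviral activity, was higher in NK cells, at 19.0 and 29.7 CPM, a ratio of 1.56 (1.09 to 2.29). In Treg the same gene stood at 66.3 and 48.5 CPM, a ratio of 0.732 (0.557 to 0.962). Ifi35 was higher in neutrophils, at 23.9 and 81.0 CPM, and stood at 48.6 and 64.1 in Treg, a ratio of 1.32 (1.00 to 1.75). Trim30a, which dampens NF-kB signalling, stood at 269 and 297 CPM in cDC2, a ratio of 1.10 (1.02 to 1.20), and at 342 and 318 in monocytes and macrophages. Slfn5 in cDC2 stood at 442 and 478 CPM, a ratio of 1.08 (1.02 to 1.15), and Slfn2 in Treg at 198 and 254, a ratio of 1.29 (1.12 to 1.48). Slfn5 in nonclassical monocytes had a ratio of 0.757 (0.705 to 0.812). Xaf1, a regulator of cell death, stood at 116 and 94.01 CPM in monocytes and macrophages, and Samd9l, which restrains viral translation, at 107 and 90.7 in NK cells, a ratio of 0.847 (0.721 to 0.999).

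Monocytes and macrophages were spread over 10 clusters, and the clusters that held most of the class differed between the libraries. In PBS the fullest were M2, led by Mmp13 and Mmp12, and M3, led by heat-shock genes such as Hspa1a, with 682 and 567 cells, and in UDSP-Hep M1, led by Ly6i and Cfb, with 695. Cluster M0 was led by Cxcl10 and also by Trim30c and Slfn5, although interferon genes were not used in the clustering. Cluster M1 had 9 lower and 1 higher, with backgrounds of 2.50% and 5.89%, and a median log2 ratio of -0.33. Rsad2 there was 402 and 205 CPM, a ratio of 0.509 (0.473 to 0.548). Cluster M15, a macrophage cluster led by Gpnmb, had 14 of 44 lower and 0 higher, with backgrounds of 5.48% and 8.17%, on 66 and 132 cells. Of the phagocyte clusters compared it is the 1 in which Irf7 was lower, at 328 and 215 CPM, and Bst2 as well, at 503 and 306.

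The 3 clusters named as classical monocytes, M0, M1 and M10, together had 6 lower (Ifit3, Ifit3b, Rsad2, Cmpk2, Usp18 and Isg20) and 1 higher, Ifi44, with backgrounds of 2.08% and 6.61%. The median log2 ratio was -0.28, and 42 of 46 lay below equality, while the median of all measured genes in these clusters is not given here. The 4 clusters named as macrophages had Slfn4 and Ifi27l2a lower and Isg15 higher, with backgrounds of 4.69% and 10.4% and a median log2 ratio of -0.06.

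Cluster M10, classical monocytes led by Hp and F13a1, went the other way, with 7 higher and 0 lower, beside backgrounds of 4.15% and 1.76%. Of the 46, 39 lay above equality there, and the median log2 ratio was 0.16. The median of all measured genes of M10 is not given here. In the pooled monocytes and macrophages the median gene also lay above equality, so neither value sets the list apart by itself. The 7 were Ifit1, Rsad2, Oas1g, Isg15, Ifi205, Slfn4 and Isg20, with Rsad2 at 66.2 and 109 CPM, a ratio of 1.65 (1.37 to 1.98), and Slfn4 at 23.3 and 46.8, a ratio of 2.004 (1.48 to 2.72). In the other clusters with at least 50 cells in each library more were lower than higher: 5 against 1 in M0, M2 and M4, 6 against 2 in M3, 7 against 1 in M6 and 6 against 1 in M9. The backgrounds for lower there were 2.52%, 3.49%, 4.63%, 4.93%, 3.63% and 3.37%, and for higher 6.04%, 9.55%, 7.35%, 11.8%, 7.71% and 7.21%. Isg15 was the gene called higher in M0, M2, M4, M6, M9 and M10, with 102 and 160.1 CPM in M0, 117 and 186 in M2 and 19.8 and 55.2 in M10. Slfn4 was lower in M1, M2, M3, M4, M6, M9 and M15 and higher in M10. Whether a difference between M10 and the other clusters exceeds that between tumours was not tested.

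CD8 T cells were likewise spread unevenly, with T1, led by Cd8a, Gzmf and Ifng, holding 241 and 103 cells and T2, led by Gzmk and Ccl5, holding 82 and 251. Within these clusters more of the members were lower than in the pooled class. T1 had 8 of 37 lower and 4 higher, with backgrounds of 4.99% and 8.45%, and T2 had 12 of 39 lower and 0 higher, with backgrounds of 3.06% and 5.55%. In T1, 36 of the 37 reached the minimum of UMIs in PBS alone, but only 26 reached it in both libraries. Lower calls in T1 may therefore have passed through PBS, where the genes were higher, and which of the 8 did so is not given. The lower count and the median of T1 are limited in this way. In T2, 27 of the 39 reached the minimum in PBS alone and 27 in both libraries, so no gene passed through PBS only. The median log2 ratio was -0.39 in T1 and -0.52 in T2, against 0.08 in the class. Ifi27l2a was lower in both, at 1433 and 635 CPM in T1 and 1428 and 635 in T2. Isg15, Slfn2, Slfn5 and Ms4a4c, higher in the pooled class, were also higher in T1, which is itself part of that class. None of these genes was called higher in T2. In T9, led by Tcf7 and Lef1, 2 of 27 were higher, Parp14 and Ms4a4c, and 0 lower, with backgrounds of 5.15% and 1.92%. With clusters weighted the same in both libraries, the pooled class had 2 higher and 9 lower. T0, with 126 and 49 cells, was too small in UDSP-Hep to be compared. It held 2768123 of the 5972720 UMIs of the pooled class in PBS and 1061173 of 3462794 in UDSP-Hep. Median depths were 20422 and 21430 UMIs in T0 and 8569 and 4984.5 in the class. The part of T0 in the pooled ratios was not tested.

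Of the T cell clusters without a name, T3, led by Tcrg-C4 and Trdc, had 5 of 41 lower and T8, led by Ccl1, Il13 and Cd4, had 12 of 40 lower, with 0 higher in each. The backgrounds for lower were 2.49% and 3.28%, and for higher 4.48% and 6.03%. T8 included Trim30a, at 305 and 201 CPM, and Zbp1, at 137 and 91.2. NK cells fell into T4, T5 and T6, with 190, 106 and 136 cells in PBS and 193, 606 and 606 in UDSP-Hep. There T4 had 4 of 34 lower and 1 higher, T5 had 1 of 39 lower and 2 higher, and T6 had 0 of 29 lower and 2 higher. Their backgrounds for lower were 2.88%, 2.23% and 2.53%, and for higher 3.79%, 3.11% and 4.48%. Ifit1 was lower in T4, at 35.9 and 14.8 CPM, and higher in T5, at 6.66 and 24.3. In each of these clusters the library with the lower level had under 20 UMIs of Ifit1. The gene passed the minimum through the other library, so the opposite directions support nothing further.

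**Figure D4:**
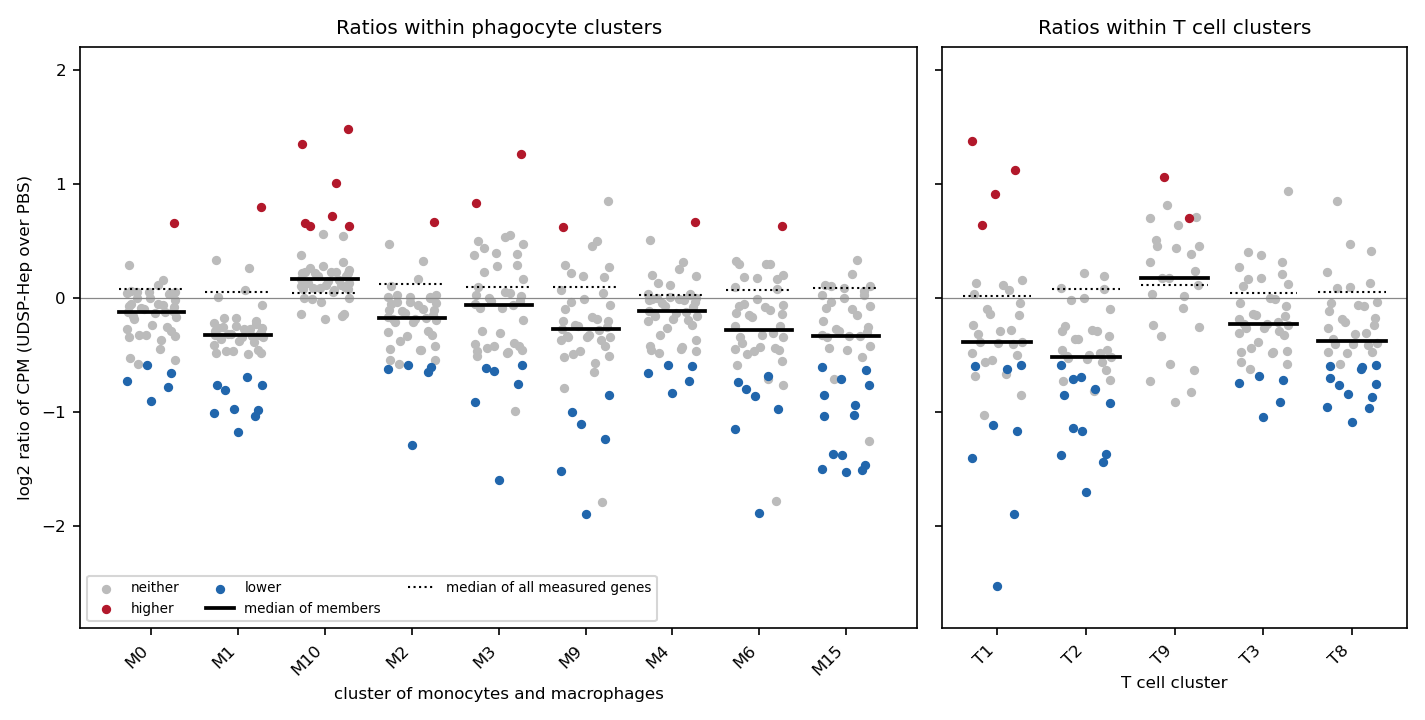
Log2 ratio of CPM, UDSP-Hep over PBS (vertical axis), of the measured interferon-stimulated genes in 9 clusters of monocytes and macrophages (left) and 5 T cell clusters (right), red where higher and blue where lower by the 1.5-fold rule. The median line is at 0.16 in M10 and 0.17 in T9 and below 0 in the other clusters, down to -0.52 in T2.

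Members were unevenly spread over single cells. To compare cells of unlike depth, each was thinned to 1000 UMIs, and cells with at least 3 UMIs of 11 core members (Isg15, Ifit1, Ifit2, Ifit3, Ifit3b, Oasl1, Oasl2, Rsad2, Irf7, Usp18 and Cmpk2) were counted, with exact binomial 95% intervals. In monocytes and macrophages these were 21.7% (20.4 to 23.1) of cells in PBS and 16.5% (14.9 to 18.2) in UDSP-Hep, leaving out 43 and 12 shallower cells, where the unthinned shares were 73.1% and 73.6%. The median depths of that class were 8402 and 9595 UMIs. The tenth of cells with the most core UMIs held 55.4% and 56.9% of them after thinning. In neutrophils the shares were 47.5% (34.3 to 60.9) and 34.4% (31.2 to 37.7), leaving out 3 and 64 cells, with 64.5% and 55.0% unthinned and median depths of 2289.5 and 2417 UMIs. The neutrophil intervals overlap.

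Cluster M0 held 35.1% (30.3 to 40.1) and 29.9% (22.8 to 37.8) such cells and M2 34.8% (31.2 to 38.6) and 30.2% (23.8 to 37.2), the highest shares among phagocyte clusters in both libraries. In M10 they were 7.05% (4.70 to 10.1) and 8.96% (5.82 to 13.03). Nonclassical monocytes had 6.25% (3.86 to 9.49) and 4.32% (2.91 to 6.14), cDC2 9.02% (6.33 to 12.4) and 7.29% (4.38 to 11.3) and mature dendritic cells 6.53% (3.52 to 10.9) and 8.22% (3.08 to 17.0). The intervals of the 2 libraries overlap in each of these 6, while those of the whole class of monocytes and macrophages do not. These intervals count cells of 1 library per group and leave out differences between tumours, so their separation is no test of the treatment. Within that class, the clusters named classical monocytes held 20.8% (18.5 to 23.2) and 14.98% (12.9 to 17.2). The clusters named macrophages held 14.1% (11.8 to 16.6) and 15.2% (12.4 to 18.5), with intervals that overlap. Shares were lower in the lymphocyte classes, with 0.713% (0.147 to 2.07) and 1.16% (0.663 to 1.87) in NK cells, 3.43% (1.39 to 6.94) and 1.47% (0.402 to 3.72) in Treg and 2.64% (1.41 to 4.47) and 2.13% (1.02 to 3.88) in CD8 T cells. The Treg intervals overlapped those of nonclassical monocytes. Cluster T8, a T cell cluster outside these classes, held 7.76% (3.61 to 14.2) and 7.55% (4.38 to 12.0), with intervals that overlap those of nonclassical monocytes, and cluster T3 4.61% (2.54 to 7.61) and 2.62% (1.21 to 4.92). Unthinned, NK cells had 7.18% and 6.55% at median depths of 3942 and 3860.0 UMIs.

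**Figure D5:**
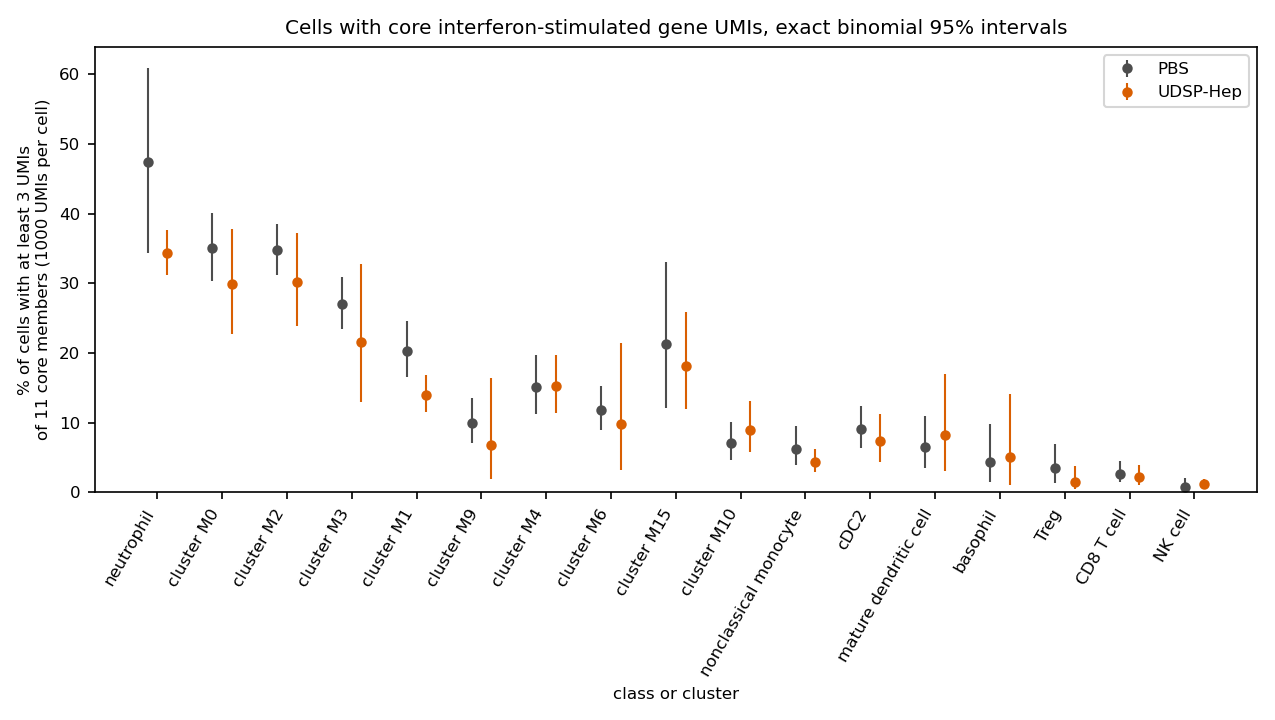
Share of cells with at least 3 UMIs of 11 core interferon-stimulated genes after thinning to 1000 UMIs per cell (vertical axis, percent) in classes and clusters (horizontal axis), grey for PBS and orange for UDSP-Hep, with exact binomial 95% intervals. Neutrophils reach 47.5% and 34.4%, M0 35.1% and 29.9%, and NK cells 0.713% and 1.16%.

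The pathway genes around the members were taken from 6 lists. Of 20 type I and III interferon genes, Ifnb1, the gene for interferon-beta, was the 1 with more than a single UMI in a library. It had 158 UMIs in 21 PBS cells and 16 UMIs in 9 UDSP-Hep cells. Of the PBS UMIs, 70 came from 4 cells of cluster T10, 50 of them from 1 cell, while M2 had 27 in 4 cells, M7 24 in 1 cell, M6 19 in 7 cells and T0 14 in 1 cell. So few cells carried the transcript that the totals turn on single cells. Ifnb1 had, among monocytes and macrophages, 71 and 8 UMIs, or 1.97 and 0.351 CPM. Ifnk had 0 and 1 UMIs, Ifnz 1 and 1, and the other 17 had none in either library.

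Ifnar1 and Ifnar2, the receptor chains, were higher in CD8 T cells, at 73.5 and 116 and 34.0 and 59.5 CPM, and met the rule in none of the other 8 classes. Of 14 measured sensor, adaptor, kinase and IRF genes, 0 were called in monocytes and macrophages. Irf8 was higher in cDC2, at 115 and 193 CPM, and Irf1 was higher in neutrophils, at 283 and 593, in CD8 T cells, at 116 and 227, and in Treg, at 262 and 471, as well as in mature dendritic cells and basophils. Among 7 measured negative regulators, Ptpn2, a phosphatase of JAK and STAT proteins, was lower in monocytes and macrophages, at 94.8 and 61.7 CPM. Socs1 and Socs3, which block the receptor kinases, were lower in nonclassical monocytes, at 106 and 55.5 and 545 and 359 CPM, and higher in CD8 T cells, at 64.0 and 124 and 38.3 and 84.0.

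Of 54 further interferon-stimulated genes measured in monocytes and macrophages, 0 were higher and 1 lower, Trim30c at 15.9 and 9.69 CPM, with a median log2 ratio of -0.02. In mature dendritic cells 13 of 49 were higher and 2 lower, beside backgrounds of 14.0% and 3.02%, with a median of 0.41. The first 4 in list order were Trim21, at 14.2 and 26.2 CPM, Ifit1bl1, lower at 27.8 and 14.4, Ifitm1, lower at 930.3 and 218, and Ifi203, at 45.2 and 76.0. In CD8 T cells 8 of 52 were higher and 1 lower, near the backgrounds of 11.9% and 6.08%, with Ifitm1 at 38.01 and 84.9 CPM, Ifitm2 at 43.9 and 77.1, Ifi208 at 9.88 and 28.9 and Ifi213 at 31.6 and 53.7.

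The 20 interferon-gamma response genes, some of which are also on other lists, had more higher calls than lower ones in 8 of the 9 classes and no call in NK cells. Over all measured genes, too, higher calls outnumbered lower ones in each of the 9 classes, so this direction is not particular to the list. The backgrounds were 5.86% higher and 2.10% lower in nonclassical monocytes, 4.83% and 2.28% in cDC2, 7.35% and 4.67% in basophils and 4.69% and 2.47% in Treg. Of the list, 4 of 19 were higher and 2 lower in nonclassical monocytes, and 2 of 10 and 1 in basophils. In monocytes and macrophages 4 of 19 were higher and 0 lower, beside a background of 9.53% for higher, with a median log2 ratio of 0.35. Among them were Gbp2b, at 11.1 and 24.2 CPM, Gbp5, at 69.5 and 129, and Gbp6, at 26.0 and 43.1. Guanylate-binding proteins such as these attack membranes of intracellular pathogens. In neutrophils 10 of 19 were higher and 0 lower, beside 8.37% higher over all genes, with a median of 1.08, and the first in list order were Cxcl9, at 31.8 and 263 CPM, Cxcl10, at 203 and 540.3, Gbp2, at 529 and 1174, and Gbp3, at 47.8 and 90.1. Cxcl9 and Gbp3 had under 20 UMIs in PBS, on 62 cells, and passed the minimum through UDSP-Hep, where they were higher. Their calls therefore support nothing further. Both genes are counted in the 10 of 19 and in the median of 1.08, so these values are limited in the same way. Whether the calls not named here passed the minimum in PBS is not given. The 46 in the same neutrophils had a median of -0.02. In mature dendritic cells 8 of 17 were higher, beside 14.0%, with a median of 0.58, and the 46 had 0.29 there. In CD8 T cells 8 of 16 were higher, beside 11.9%, with 0.70. In NK cells it was 0 of 17, with 0.08, close to the 0.02 of the 46. The difference between the lists was not tested.

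Over 22 points, each a class and library, the genes outside all lists whose level followed the mean of the 46 most closely were Ralb, Rbm47, Nampt, Slc6a6, Eif4ebp1, Gm34084, Hmox2, Soat1, Tgm2 and Znhit1. Pearson's r on the log2(CPM + 10) scale ran from 0.935 for Ralb to 0.902 for Znhit1, as a description over points that share libraries and depth. These genes too were highest in neutrophils or in monocytes and macrophages. Of the members themselves, Oasl2 followed the mean most closely, at 0.95, and Samd9l, Ddx58 and Isg20 least, at -0.03, 0.24 and 0.25.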

How the data were processed

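Each deposited matrix holds raw counts, the UMIs of a gene in a barcode, which the authors made using Cell Ranger 7.0.0, per the file headers. The submitters' processing notes name mm10 as the build and list Seurat, giving neither its version nor its role. Members and lists were chosen with earlier results of these data known.

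Barcodes with fewer than 200 genes or 500 UMIs, or with 10% or more of their UMIs mitochondrial, were dropped, which removed 245 and 197 barcodes. The doublet caller Scrublet marked 0.0138% and 0.0129% by its own threshold, under 0.5%, so 417 and 481 barcodes with the highest scores (0.8% for every 1000 barcodes) were taken out instead. Both libraries were clustered together without integration (scanpy 1.11.5, igraph 0.11.9, 2000 variable genes without interferon genes, 30 components, 15 neighbours, Leiden resolution 1.0), giving 37 clusters. A cluster took a name from at least 3 markers of a fixed list. Clusters M2, M3 and M9 had no finer name and were pooled with the monocytes and macrophages, and M0 and M3 were led by interferon and heat-shock genes. The genes' levels were to be read by marker-gated class. Clusters were used here, and gates on single cells were 1 of the alternatives.

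UMIs were summed per class and library. Levels have exact Poisson intervals, ratios exact conditional binomial intervals and shares exact Clopper-Pearson intervals, all at 95% and for counting error only (scipy 1.17.1, numpy 2.4.6, pandas 2.3.3, matplotlib 3.10.9). The deeper class has the narrower interval. Named with values were all members of the Ifit, Oas, Slfn and Parp families in the 4 classes with the most cells, the 5 members furthest above and below equality in classes with at least 100 cells per library (at least 50 summed UMIs, by the interval bound nearest to equality), and Irf7, Irf9 and Stat2. Pathway genes were named where called, at most 4 per list and class. A gene of the pathway lists is not reported here by name. Other names were chosen after their values were seen. The scripts were tested on simulated data. Alternatives were other doublet, cell and gene filters, other Leiden resolutions, interferon genes kept in the clustering, gates, thinning, other weights and scaling, a 2-fold rule and leaving out single clusters.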

Additional observations from a re-analysis of the deposited data

Results flagged for a closer look

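Among the 46 genes, 7 were higher in 1 class of cells and lower in another by the 1.5-fold rule, which is why they are listed here. These opposite directions rest on 1 library per group, and the difference between the classes was not tested. Rsad2 had a log2 ratio of 1.19 in mature dendritic cells and -1.01 in CD8 T cells. Cmpk2 had 2.13 in mature dendritic cells and -1.11 in neutrophils. Oasl1 had 0.93 in mature dendritic cells and -1.12 in CD8 T cells. Slfn4 had 1.78 in mature dendritic cells and -1.07 in monocytes and macrophages. Isg20 had 0.76 in mature dendritic cells and -1.21 in neutrophils. Ms4a4c had 1.06 in CD8 T cells and -0.93 in NK cells. Ifi27l2a had 0.62 in NK cells and -1.62 in basophils. Mature dendritic cells were the higher side for 5 of the 7, a class in which the summed macrophage, classical monocyte, neutrophil and CD8 T cell marker lists were also higher in UDSP-Hep, and the part of those markers in these values was not tested.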

How the results depend on the processing

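With 1 library per group no replicate could be left out. No paired analysis was possible because each group had a single library. A 2-fold rule can only call fewer genes, by construction, and the cause of each other change below was not tested. For monocytes and macrophages the median log2 ratio of -0.19 was below 0 under all 17 alternatives, lowest at -0.32 with median-of-ratios scaling and highest at -0.12 at Leiden resolution 2.0. The log2 ratios of Slfn4 (-1.24 to -0.64) and Isg15 (0.30 to 0.57) also kept their sign there. The 1 higher member became 0 with median-of-ratios scaling, a 2-fold rule, the same weight for every cluster, or without cluster M1. The 3 lower became 1 at resolution 2.0 or with a 2-fold rule, 6 with cells thinned to 1000 UMIs, with every cell weighed the same, or without cluster M10, and 8 with median-of-ratios scaling. Leaving out clusters was an alternative chosen after seeing the data. In nonclassical monocytes the 0 higher became 1 at resolution 0.5, at resolution 2.0 and under thinning, 3 with clusters weighed the same and 4 with marker gates. The 3 lower became 1 with doublets kept, at resolution 2.0, with interferon genes kept for clustering or with clusters weighed the same, and 0 with a 2-fold rule. In cDC2 the 0 higher became 1 under thinning, with cells weighed the same and with gates, and the 8 lower became 2 under thinning, 2 with gates, 5 with clusters weighed the same and 0 with a 2-fold rule. In mature dendritic cells the 9 higher became 3 with doublets kept, 17 with stricter cell filters, 4 at resolution 0.5 and at 2.0, 20 with interferon genes kept, where the median log2 ratio was 0.56 in place of 0.29, 1 under thinning and 3 with a 2-fold rule. The 0 lower became 4 with doublets kept or cells weighed the same, 3 at resolution 0.5 and at 2.0, 2 with median-of-ratios scaling, and 1 under thinning or with gates. In neutrophils the 3 higher became 1 with doublets kept or under thinning, 5 with interferon genes kept or cells weighed the same, and 9 with gates, while the 10 lower became 4 with a 2-fold rule and 17 with cells weighed the same. In basophils the 1 higher became 5 with doublets kept, 0 under thinning or a 2-fold rule, 2 with cells weighed the same and 3 with gates, and the 4 lower became 1 under thinning and 2 with a 2-fold rule. In NK cells the 3 higher became 1 under thinning or a 2-fold rule and 5 with gates, and the 1 lower became 2 with interferon genes kept, under thinning or with cells weighed the same, and 0 with a 2-fold rule or gates. In CD8 T cells the 5 higher became 3 at resolution 0.5, 1 under thinning or a 2-fold rule and 2 with clusters weighed the same, and the 3 lower became 5 at resolution 2.0 or with cells weighed the same and 9 with clusters weighed the same. In Treg the 3 higher became 5 with doublets kept, 0 at resolution 0.5 or with gates and 1 under thinning, and the 1 lower became 12 at resolution 0.5, 2 with median-of-ratios scaling, 0 with a minimum of 50 summed UMIs and 4 with cells weighed the same. Among single genes, 2 reversed, both with doublets kept: Rsad2 in CD8 T cells, 0.03 in place of -1.01, and Ifi27l2a in basophils, 0.29 in place of -1.62. Over all measured genes the median lay above equality by a log2 ratio of 0.13 in monocytes and macrophages, 0.12 in mature dendritic cells and 0.23 in neutrophils. Weighing clusters the same gave no value for mature dendritic cells, basophils and neutrophils. Depth limits the smaller classes most, with 62 PBS neutrophils, 59 UDSP-Hep basophils and 74 UDSP-Hep mature dendritic cells.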
